A study of Mus musculus with 10 samples.

Results

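The distal 2 Mb of the mouse autosomes hold the stretch of each chromosome that lies nearest to the telomere opposite the centromere. Its members were the cytosines of CpGs on chromosomes 1 to 19 that lay within 2 Mb below the last listed cytosine of their chromosome and had at least 10 reads in both libraries. There were 40398 of them in 38 Mb, 1.5% of the 2691781 cytosines of the series with that many reads, and they were set against 2629126 cytosines in the rest of the autosomes. Position chose them, not methylation. Per chromosome they numbered from 990 on chromosome 18 to 4142 on chromosome 11, and they were 40.9% of all cytosines listed in these windows.

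The assay was reduced-representation bisulfite sequencing (RRBS), which reads CpG-rich restriction fragments after unmethylated cytosines have been converted. The TSPAN8-high and TSPAN8-low fractions were both spermatogonia of mouse pups at postnatal day 6 that carried the Id4-eGfp transgene (line LT-11B6, on a C57BL/6 background) and were positive for the ID4-EGFP reporter. They were sorted on antibody staining of TSPAN8, a tetraspanin of the cell surface, the brightest cells giving TSPAN8-high and the dimmest TSPAN8-low, and each fraction gave 1 library from 5 pooled sorts and 300 ng of DNA. No fraction had a replicate, tests between fractions compare 2 libraries, and the 8 chromatin samples of the series were not analysed here. Distal cytosines carried 749129 reads in TSPAN8-high cells and 743611 in TSPAN8-low cells, and the median cytosine had 16 reads in either library, as in the rest of the autosomes. Of 16 measured germline genes that are silenced by methylation in somatic cells, 15 had promoters below 20% methylation in both libraries. Outside the distal windows 93.0% of measured promoters were below 20% in both libraries. The germline count was near that share and is no test of germline identity. Of the promoter lists of other testis cells, the 10 measured Sertoli cell genes and the 2 endothelial ones were below 20% in both libraries, as were 1 of 2 Leydig cell and 2 of 3 leukocyte genes. The 3 measured peritubular myoid genes had a median of 47.3% in TSPAN8-high cells and 50% in TSPAN8-low cells. A promoter level is no measure of expression.

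Mouse autosomes are telocentric, so the centromere lies close to the start of the coordinates and the distal end is the far telomere. In mammalian cells most isolated CpGs are methylated, whereas CpG-dense promoters are kept free of methylation. Primordial germ cells lose most of their DNA methylation and prospermatogonia regain it around birth, so the methylome of a postnatal spermatogonium has been built anew. Because the level depends so strongly on CpG density, each distal cytosine was compared with cytosines of its own chromosome that had the same number of listed CpGs in the surrounding 200 bp. Listed CpGs are those with at least 5 reads in each library, so their number can fall short of the CpGs in the sequence. The last listed cytosine is not the telomere itself, and the distance to the telomeric repeats was not measured.

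The promoters of 5 genes show what these windows hold, from a methylated CpG-poor promoter close to the end to CpG-rich ones that were almost free of methylation. Each line gives the 250 bases before the RefSeq start of the gene (GRCm38.p6, the assembly behind mm10), 5′ to 3′ on the strand of the gene, with CpGs in capitals. Mrgprd (chr7:145314585-145314834, plus strand) encodes a receptor of pain-sensing neurons. Tex19.1 (chr11:121145893-121146142, plus strand) is a germline gene that restrains transposons. Rfc3 (chr5:151651209-151651458, minus strand) encodes a subunit of the loader of the replication clamp. Fgf4 (chr7:144861136-144861385, plus strand) encodes a growth factor of the early embryo, and Rtel1 (chr2:181319474-181319723, plus strand) a helicase that protects telomeres.
Mrgprd: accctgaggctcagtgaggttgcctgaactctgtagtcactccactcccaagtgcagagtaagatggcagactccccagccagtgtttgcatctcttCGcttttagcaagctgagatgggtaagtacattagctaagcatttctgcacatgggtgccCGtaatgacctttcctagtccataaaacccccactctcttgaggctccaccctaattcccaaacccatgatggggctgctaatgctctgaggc
Tex19.1: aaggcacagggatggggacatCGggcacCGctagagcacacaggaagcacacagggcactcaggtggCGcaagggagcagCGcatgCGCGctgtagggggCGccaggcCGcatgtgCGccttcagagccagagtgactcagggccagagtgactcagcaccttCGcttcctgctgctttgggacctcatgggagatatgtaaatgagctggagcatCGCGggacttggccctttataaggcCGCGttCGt
Rfc3: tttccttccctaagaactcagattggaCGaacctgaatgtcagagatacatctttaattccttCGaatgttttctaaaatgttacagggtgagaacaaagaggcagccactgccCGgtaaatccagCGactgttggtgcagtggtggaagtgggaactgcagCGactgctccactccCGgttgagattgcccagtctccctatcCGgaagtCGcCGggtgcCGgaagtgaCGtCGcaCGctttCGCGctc
Fgf4: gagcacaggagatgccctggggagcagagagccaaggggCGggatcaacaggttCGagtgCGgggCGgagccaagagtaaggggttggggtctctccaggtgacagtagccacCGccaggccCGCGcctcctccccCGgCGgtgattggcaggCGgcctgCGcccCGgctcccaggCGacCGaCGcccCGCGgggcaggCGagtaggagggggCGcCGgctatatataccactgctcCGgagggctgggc
Rtel1: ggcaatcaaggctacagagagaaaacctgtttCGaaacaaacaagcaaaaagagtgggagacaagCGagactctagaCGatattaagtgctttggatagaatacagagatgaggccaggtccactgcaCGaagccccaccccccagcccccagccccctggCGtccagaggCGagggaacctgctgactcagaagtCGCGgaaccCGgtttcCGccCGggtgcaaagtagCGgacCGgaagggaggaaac

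These stretches held 2 CpGs at Mrgprd, 15 at Tex19.1, 15 at Rfc3, 21 at Fgf4 and 13 at Rtel1, beside a median of 6 over 31396 RefSeq promoters of the same 250 bases. Over the window of 1 kb either side of the start, Mrgprd was at 90.6% in TSPAN8-high cells and 94.8% in TSPAN8-low cells, from 5 CpGs. The window of Tex19.1 was at 18.8% in TSPAN8-high cells and 23.4% in TSPAN8-low cells, from 5 CpGs. None of the measured CpGs of these 2 genes lay in the printed bases. Rfc3 was at 6.43% in TSPAN8-high cells and 15.6% in TSPAN8-low cells, from 11 CpGs of which 4 lie in the printed bases, where the levels were 1.85% in TSPAN8-high cells and 1.72% in TSPAN8-low cells. Fgf4 was at 0.252% in TSPAN8-high cells and 0.421% in TSPAN8-low cells, and Rtel1 at 1.36% in TSPAN8-high cells and 0.419% in TSPAN8-low cells. In both libraries Mrgprd was far above the other 4 genes.

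The first comparison asked whether distal cytosines were methylated differently from the rest of their chromosome. On average they were slightly less methylated in both libraries, but chromosomes differed in direction and the gap depended on what was matched. The mean over 19 chromosomes was 69.0% in TSPAN8-high cells and 69.2% in TSPAN8-low cells for distal cytosines, against 71.1% in TSPAN8-high cells and 71.3% in TSPAN8-low cells for matched cytosines of the rest. The difference, distal minus rest, was -2.09 percentage points in TSPAN8-high (SD 3.77 over 19 chromosomes, 95% interval -3.91 to -0.276) and -2.03 in TSPAN8-low (SD 3.88, 95% interval -3.90 to -0.162). Distal levels were lower on 12 of 19 chromosomes in each library, which the two-sided exact sign test did not call (p = 0.359 in each). When cytosines were matched on place relative to genes as well, the mean was -1.29 in TSPAN8-high (95% interval -2.96 to 0.390) and -1.22 in TSPAN8-low (95% interval -2.96 to 0.514). The medians of the first matching, -1.28 in TSPAN8-high cells and -1.24 in TSPAN8-low cells, were smaller in size than the means. Chromosomes of 1 library are not biological replicates, and these intervals cover the spread between chromosomes.

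**Figure D1:**
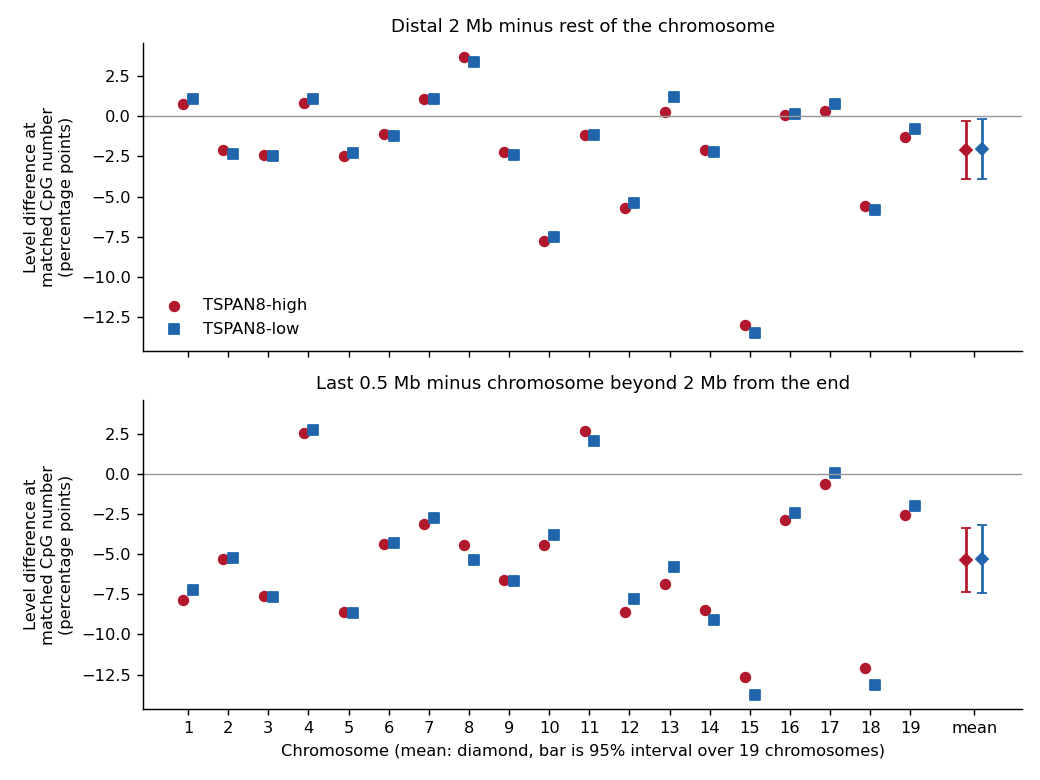
Methylation level of distal cytosines minus that of cytosines with the same number of listed CpGs on the same chromosome, in percentage points, for chromosomes 1 to 19 in TSPAN8-high (circles) and TSPAN8-low (squares); diamonds and bars are means and 95% intervals over chromosomes. The upper panel shows the distal 2 Mb against the rest, lowest on chromosome 15 at -12.97 in TSPAN8-high, and the lower panel the last 0.5 Mb against the chromosome beyond 2 Mb, where 17 chromosomes lie below 0 in TSPAN8-high cells and 16 in TSPAN8-low cells.

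The mean rested in part on chromosome 15. Its distal cytosines averaged 45.4% in TSPAN8-high cells and 45.0% in TSPAN8-low cells, against 58.4% in TSPAN8-high cells and 58.5% in TSPAN8-low cells over the matched rest, a difference of -12.97 percentage points in TSPAN8-high cells and -13.48 in TSPAN8-low cells. Chromosome 10 followed with 65.3% in TSPAN8-high cells and 65.6% in TSPAN8-low cells, against 73.1% in TSPAN8-high cells and 73.2% in TSPAN8-low cells over the rest. Chromosomes 12 and 18 differed by -5.73 and -5.58 percentage points in TSPAN8-high cells and by -5.40 and -5.82 in TSPAN8-low cells. At the other extreme, chromosome 8 had 86.3% in TSPAN8-high cells and 86.1% in TSPAN8-low cells, against 82.6% in TSPAN8-high cells and 82.8% in TSPAN8-low cells over the rest, a difference of 3.70 in TSPAN8-high cells and 3.34 in TSPAN8-low cells. The sign of the difference was the same in both libraries on 19 of 19 chromosomes. Without chromosome 15 the mean was -1.49 percentage points in TSPAN8-high cells and -1.40 in TSPAN8-low cells.

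The size of these differences was set against other stretches of the same length. Each chromosome was divided into consecutive windows of 2 Mb counted back from its last listed cytosine, 1204 in all, and windows were ranked by their level at matched CpG number in TSPAN8-high. On 15 of 19 chromosomes the distal window lay within 1 SD of the windows of its chromosome, where the median SD was 4.55 percentage points. The distal window of chromosome 15 was the 2nd lowest of 51 windows, that of chromosome 18 the 3rd lowest of 44, that of chromosome 12 the 5th lowest of 59 and that of chromosome 10 the 5th lowest of 64. The distal window of chromosome 8 was the 54th of 64, counted from the lowest.

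The low level was graded with distance from the end. In the last 0.5 Mb, which held 7175 cytosines, levels averaged 69.0% in TSPAN8-high cells and 69.1% in TSPAN8-low cells, against 74.3% in TSPAN8-high cells and 74.5% in TSPAN8-low cells for matched cytosines beyond 2 Mb. This was a difference of -5.36 percentage points in TSPAN8-high (SD 4.18, 95% interval -7.38 to -3.35) and -5.31 in TSPAN8-low (SD 4.42, 95% interval -7.44 to -3.18). It was negative on 17 of 19 chromosomes in TSPAN8-high (two-sided exact sign test, p = 0.000729) and on 16 of 19 in TSPAN8-low (p = 0.00443, exact sign test). From 0.5 to 1 Mb the mean difference was -2.41 in TSPAN8-high cells and -2.47 in TSPAN8-low cells, and from 1 to 2 Mb -0.77 in TSPAN8-high cells and -0.68 in TSPAN8-low cells. Just beyond the windows it was positive, 0.78 in TSPAN8-high cells and 0.72 in TSPAN8-low cells from 2 to 5 Mb and 1.86 in TSPAN8-high cells and 1.87 in TSPAN8-low cells from 5 to 10 Mb, and it returned to 0.63 in TSPAN8-high cells and 0.60 in TSPAN8-low cells from 10 to 20 Mb. Beyond 20 Mb, where most cytosines of the chromosomes lie, it was -0.25 in TSPAN8-high cells and -0.24 in TSPAN8-low cells. The test of the last 0.5 Mb was added after this profile had been seen, while a window of 1 Mb was among the alternatives set out earlier. That window gave -3.74 percentage points in both libraries (17 of 19 chromosomes negative in TSPAN8-high, exact sign test p = 0.000729, and 16 of 19 in TSPAN8-low, p = 0.00443).

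**Figure D2:**
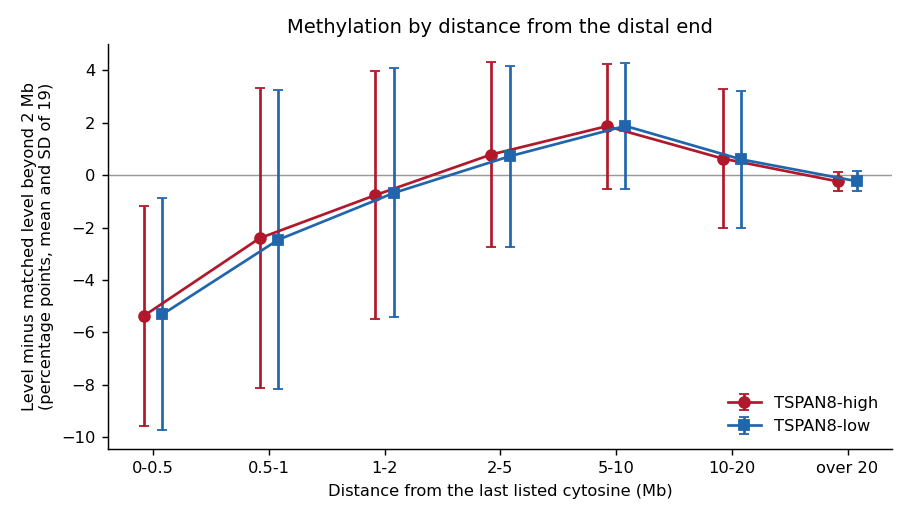
Level minus the level of cytosines beyond 2 Mb at the same number of listed CpGs, in percentage points, by distance from the last listed cytosine, with TSPAN8-high as circles and TSPAN8-low as squares (mean and SD over 19 chromosomes). The mean is lowest at 0 to 0.5 Mb, at -5.36 in TSPAN8-high, and highest at 5 to 10 Mb, at 1.86.

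In the last 0.5 Mb the largest differences were those of chromosome 15, with 64.7% in TSPAN8-high cells and 63.7% in TSPAN8-low cells against 77.3% in TSPAN8-high cells and 77.5% in TSPAN8-low cells beyond 2 Mb, and of chromosome 18, with 68.3% in TSPAN8-high cells and 67.4% in TSPAN8-low cells against 80.4% in TSPAN8-high cells and 80.5% in TSPAN8-low cells. Chromosomes 4 and 11 were the ones above their matched level in both libraries, by 2.54 and 2.66 percentage points in TSPAN8-high cells and by 2.75 and 2.03 in TSPAN8-low cells. Chromosome 17 lay at -0.67 in TSPAN8-high cells and 0.02 in TSPAN8-low cells. Other features changed with distance too. Pooled over chromosomes, 20.4% of cytosines in the last 0.5 Mb and 24.1% from 0.5 to 1 Mb lay within 1 kb of a gene end. This pooled share was 18.6% from 1 to 2 Mb and 13.5% beyond 20 Mb. Chromosomes differed widely, and in the last 0.5 Mb the share ran from 0.476% on chromosome 12 to 41.2% on chromosome 4. The cause of the lower level was not tested. The median was 16 reads in each library at every distance. Matched on the place relative to genes as well, the last 0.5 Mb differed by -4.05 percentage points in TSPAN8-high (16 of 19 chromosomes negative, exact sign test p = 0.00443) and by -3.99 in TSPAN8-low (16 of 19, p = 0.00443). Without the last 100 kb of each chromosome the differences were -4.94 in TSPAN8-high cells and -4.97 in TSPAN8-low cells, past the threshold in both libraries.

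The other end of the chromosomes was also low. The first 2 Mb, counted from the first listed cytosine on the centromere side, were set against the rest of the chromosome without its distal window. They differed by -5.07 percentage points in TSPAN8-high (SD 6.21, 15 of 19 chromosomes negative, exact sign test p = 0.0192) and by -5.12 in TSPAN8-low (SD 6.24, 15 of 19, p = 0.0192). Distal minus first 2 Mb was 2.98 percentage points in TSPAN8-high (95% interval -0.904 to 6.86) and 3.09 in TSPAN8-low, positive on 12 of 19 chromosomes in each (exact sign test, p = 0.359). The rule has its boundary at 2 Mb. The 2767 cytosines in the 100 kb just inside averaged 65.6% in both libraries, and the 2645 in the 100 kb just outside averaged 67.3% in TSPAN8-high cells and 67.7% in TSPAN8-low cells. These averages pool cytosines over chromosomes and are not matched for CpG number.

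The next comparison asked at which number of listed CpGs the distal cytosines differed. Of 3 classes of CpG number, the intermediate one passed the test in both libraries, and differences between the classes were not tested. Cytosines with 3 to 9 listed CpGs in 200 bp, 12423 in number, averaged 56.6% in TSPAN8-high cells and 56.8% in TSPAN8-low cells, against 62.9% in both libraries for the matched rest. The difference was -6.23 percentage points in TSPAN8-high (SD 6.59, 95% interval -9.41 to -3.06) and -6.12 in TSPAN8-low (SD 6.62, 95% interval -9.31 to -2.93). It was negative on 17 of 19 chromosomes in each library (exact sign test, p = 0.000729, adjusted p = 0.00437 over the 12 tests by CpG number or place). Cytosines with at most 2 listed CpGs differed by -0.896 in TSPAN8-high (95% interval -2.45 to 0.658, 10 of 19 negative) and by -0.882 in TSPAN8-low. By exact number, the widest gaps were at 4 listed CpGs, with 60.9% in TSPAN8-high cells and 62.0% in TSPAN8-low cells against 72.2% in TSPAN8-high cells and 72.3% in TSPAN8-low cells, and at 6, with 31.5% in TSPAN8-high cells and 30.9% in TSPAN8-low cells against 41.8% in both.

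**Figure D3:**
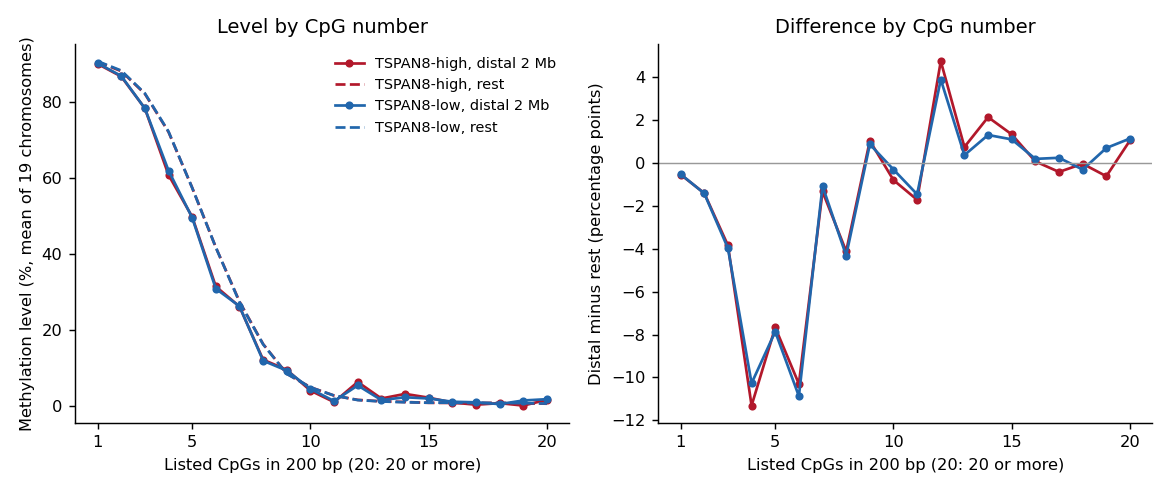
Left, methylation level in percent by number of listed CpGs in 200 bp, mean of 19 chromosomes, for distal cytosines (points and solid lines) and the rest (dashed lines) in TSPAN8-high and TSPAN8-low; the dashed lines of both libraries coincide. Right, distal minus rest in percentage points, which is lowest at 4 listed CpGs in TSPAN8-high, at -11.3, and at 6 in TSPAN8-low, at -10.9.

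Among chromosomes, the intermediate class spread widely. On chromosome 15 it was at 33.6% in TSPAN8-high cells and 33.3% in TSPAN8-low cells, against 54.9% in TSPAN8-high cells and 55.0% in TSPAN8-low cells over the rest. On chromosome 10 it was at 42.6% in TSPAN8-high cells and 43.8% in TSPAN8-low cells against 57.7% in both, and on chromosome 12 at 49.5% in TSPAN8-high cells and 48.6% in TSPAN8-low cells against 64.4% in TSPAN8-high cells and 64.5% in TSPAN8-low cells. Chromosomes 4 and 8 were the exceptions, with differences of 1.48 and 6.44 percentage points in TSPAN8-high cells and 1.81 and 6.03 in TSPAN8-low cells. The test of this class depended on the settings. Its mean stayed negative, but the sign test no longer passed with at least 20 reads (12 of 19 negative in each library, exact sign test p = 0.359), with cytosines weighted by reads in TSPAN8-high (14 of 19, p = 0.0636) or when cytosines were also matched on place relative to genes (13 of 19, p = 0.167, a mean of -4.01 in TSPAN8-high cells and -3.89 in TSPAN8-low cells).

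CpG-dense cytosines, with 10 or more listed CpGs, were nearly free of methylation at the distal ends as elsewhere. They averaged 2.98% in TSPAN8-high cells and 2.93% in TSPAN8-low cells, against 1.69% in TSPAN8-high cells and 1.70% in TSPAN8-low cells for the rest, while the median difference over chromosomes was -0.70 in TSPAN8-high cells and -0.43 in TSPAN8-low cells, in percentage points. A few chromosomes raised the mean. Chromosome 17, with 39 such cytosines, had 25.3% in TSPAN8-high cells and 20.7% in TSPAN8-low cells, against 1.75% in TSPAN8-high cells and 2.18% in TSPAN8-low cells over the rest. Chromosome 13, with 222 matched of 231, had 13.4% in TSPAN8-high cells and 14.8% in TSPAN8-low cells over the matched ones, against 1.29% in TSPAN8-high cells and 1.17% in TSPAN8-low cells. Without these 2 chromosomes, left out after their values were seen, the mean difference was -0.655 percentage points in TSPAN8-high cells and -0.521 in TSPAN8-low cells, given as a description with no test. With all 19 it was 1.29 in TSPAN8-high (14 of 19 negative, exact sign test, adjusted p = 0.153) and 1.23 in TSPAN8-low (13 of 19, adjusted p = 0.251). Of 6410 distal CpG-dense cytosines, 54 were above 50% in both libraries, 0.842% against 0.711% in the rest. They fell on 7 chromosomes, and the largest groups were 11 near Tmem267 on chromosome 13, at 57.9% in TSPAN8-high cells and 59.9% in TSPAN8-low cells, and 10 on chromosome 17 at 96.6% in TSPAN8-high cells and 80% in TSPAN8-low cells. Those 10 lay between positions 94230383 and 94230398 and can share reads. Their median was 12 reads in TSPAN8-high cells and 12.5 in TSPAN8-low cells.

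Place relative to genes gave no class that passed after adjustment over the same 12 tests. Within 1 kb of a gene end the difference was -1.57 percentage points in TSPAN8-high (14 of 19 chromosomes negative, exact sign test, adjusted p = 0.153) and -1.71 in TSPAN8-low (15 of 19, adjusted p = 0.0768). In gene bodies it was -3.77 in TSPAN8-high cells and -3.76 in TSPAN8-low cells, with a median of -1.01 in TSPAN8-high cells and -1.18 in TSPAN8-low cells, and the most negative was chromosome 17, where 56 cytosines were at 42.3% in TSPAN8-high cells and 42.9% in TSPAN8-low cells against 74.5% in TSPAN8-high cells and 74.6% in TSPAN8-low cells. Without chromosome 17, left out after its value was seen, it was -2.19 in TSPAN8-high cells and -2.20 in TSPAN8-low cells. With all 19 chromosomes, 13 were negative in each library (exact sign test, adjusted p = 0.251). Intergenic cytosines differed by -1.36 in TSPAN8-high cells and -1.31 in TSPAN8-low cells, negative on 10 of 19 chromosomes in each library.

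The content of the windows was uneven. They held 504 protein-coding genes, 13.3 ± 12.7 per Mb against 8.64 ± 2.54 per Mb in the rest (SD, n = 19 chromosomes). The median was 7.5 in the distal windows and 7.71 in the rest. Distal minus rest was 4.63 genes per Mb (95% interval -1.30 to 10.6), but negative on 11 of 19 chromosomes. Chromosome 10 had 84, of which 58 were olfactory receptor genes, and chromosome 17 had 3. Listed cytosines per Mb ran from 0.447 times the rest on chromosome 17 to 1.73 times on chromosome 4. Cytosines with 10 or more listed CpGs made up 15.9% of the distal ones and 9.85% of the rest. Without matching for CpG number the distal difference was -3.86 percentage points in TSPAN8-high cells and -3.80 in TSPAN8-low cells.

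Levels were uneven within the windows. Of 380 blocks of 100 kb, 295 held at least 50 cytosines. Of these, 38 lay more than 10 percentage points below the matched level of the chromosome beyond 2 Mb in both libraries, and 18 lay more than 10 above it. Blocks were not formed in the rest of the chromosomes. Whether these counts are particular to the distal ends was therefore not tested. The median block differed by -0.25 in TSPAN8-high cells and -0.15 in TSPAN8-low cells. Both libraries gave the blocks nearly the same values (Pearson r = 0.991 over 295 blocks, which share CpGs and fragments between the libraries).

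**Figure D4:**
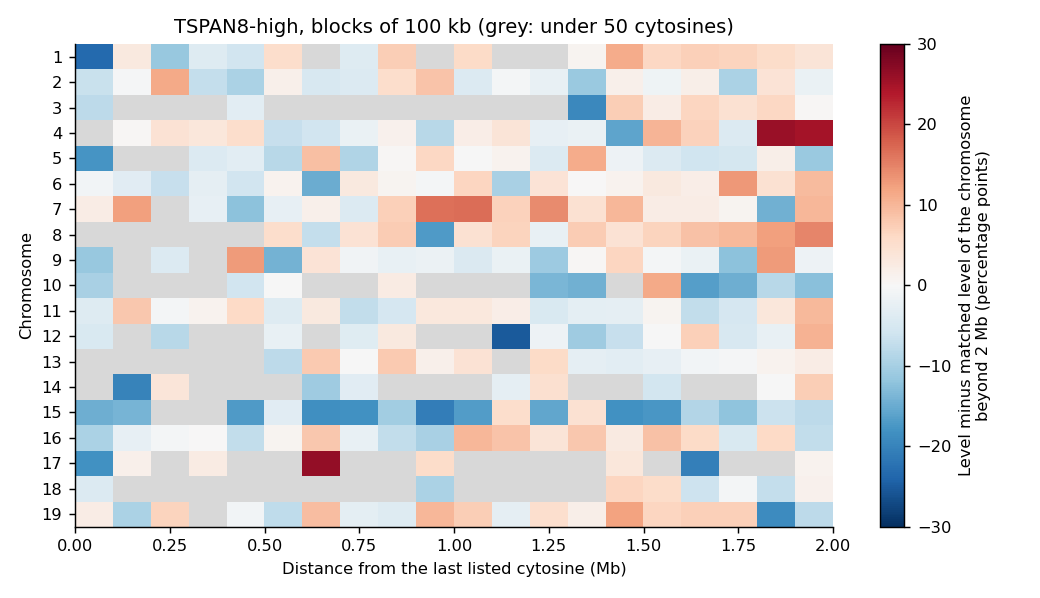
Level of each 100-kb block of the distal 2 Mb minus the level of its chromosome beyond 2 Mb at the same CpG number, in percentage points, in TSPAN8-high, by distance from the last listed cytosine (horizontal) and chromosome (vertical). Low blocks (blue) are many on chromosome 15, and the lowest is the block of Sp8 and Abcb5 on chromosome 12, at -25.2; grey blocks held under 50 cytosines.

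Of the 295 blocks, the 7 lowest in TSPAN8-high by this difference were on 7 chromosomes. The block of Sp8, a zinc finger factor of limb outgrowth, and Abcb5, a membrane transporter, on chromosome 12 was at 32.2% in TSPAN8-high cells and 32.3% in TSPAN8-low cells, 25.2 percentage points below the matched level in each. The last 100 kb of chromosome 1, with no protein-coding gene, was at 62.8% in TSPAN8-high cells and 64.3% in TSPAN8-low cells, a difference of -23.3 in TSPAN8-high cells and -21.9 in TSPAN8-low cells. On chromosome 15 the block of Hoxc4 to Hoxc11, homeobox genes of body axis patterning, was at 15.9% in TSPAN8-high cells and 15.6% in TSPAN8-low cells, a difference of -20.7 in TSPAN8-high cells and -21.1 in TSPAN8-low cells. The Adcyap1 block on chromosome 17, with the gene of the neuropeptide PACAP, was at 54.5% in both libraries, a difference of -20.4 in TSPAN8-high cells and -20.5 in TSPAN8-low cells. Next came a block over Fgf14, an intracellular member of the FGF family, on chromosome 14, at 67.8% in TSPAN8-high cells and 69.4% in TSPAN8-low cells. After it came a block over Lrrc7, a gene of the postsynaptic density, on chromosome 3, at 55.5% in TSPAN8-high cells and 55.6% in TSPAN8-low cells. Other blocks over these genes, of any cytosine number, were less low or high. Their differences in TSPAN8-high cells ran from -10.7 to 6.24 for Fgf14 and from 2.31 to 7.49 for Lrrc7. The Emx2 block on chromosome 19, with a homeobox gene of forebrain and urogenital development, was at 39.8% in TSPAN8-high cells and 41.9% in TSPAN8-low cells, a difference of -18.9 in TSPAN8-high cells and -16.8 in TSPAN8-low cells. The next 3 were all on chromosome 15, among them the block of Smug1, a DNA repair gene, and Cbx5, a heterochromatin protein gene, at 38.2% in TSPAN8-high cells and 38.6% in TSPAN8-low cells. Blocks with fewer cytosines were not ranked, and some lay lower still. The blocks given here were named for their levels, which were seen first, so their low values are a description.

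Less far below their level were 2 blocks on chromosome 7, picked for their gene clusters. The block of Cdkn1c, an imprinted cell cycle inhibitor, with Slc22a18, Phlda2, an imprinted regulator of placental growth, and Nap1l4, was at 32.8% in TSPAN8-high cells and 32.4% in TSPAN8-low cells, a difference of -14.4 in TSPAN8-high cells and -14.9 in TSPAN8-low cells, in percentage points. The block of the growth factor genes Fgf3, Fgf4 and Fgf15 and of Ccnd1, which encodes cyclin D1, was at 37.2% in TSPAN8-high cells and 38.5% in TSPAN8-low cells, a difference of -12.2 in TSPAN8-high cells and -11.1 in TSPAN8-low cells. Some blocks were high. Of 3 blocks over Prdm16, a regulator of brown fat identity, on chromosome 4, a pair were at 96.1% and 95.5% in TSPAN8-high cells and at 96.7% and 96.4% in TSPAN8-low cells. The other was at 40.2% in TSPAN8-high cells and 41.2% in TSPAN8-low cells, a difference of -4.00 in TSPAN8-high cells and -3.06 in TSPAN8-low cells. The highest of 4 blocks over Pard3, a cell polarity gene, on chromosome 8 by its difference was at 96.0% in TSPAN8-high cells and 96.3% in TSPAN8-low cells.

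Chromosome 15 was also low without the Hoxc genes. The stretch of 9 Hoxc genes with 20 kb either side held 677 cytosines at 16.0% in TSPAN8-high cells and 15.9% in TSPAN8-low cells. Without it, the distal cytosines of chromosome 15 were at 52.7% in TSPAN8-high cells and 52.2% in TSPAN8-low cells, against 63.5% in TSPAN8-high cells and 63.6% in TSPAN8-low cells over the matched rest, a difference of -10.8 in TSPAN8-high cells and -11.4 in TSPAN8-low cells, in percentage points. This exclusion was chosen after the block values had been seen.

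Promoters were the next set of members. A promoter window reached 1 kb either side of a gene's start and needed at least 5 CpGs, and 282 distal protein-coding genes had one, of 12289 in the series. Of the 282, 259 were below 20% in both libraries, 6 above 80% in both and 17 in between. The share below 20% in both was 91.8%, against 93.0% in the rest of the series. The median level was 1.16% in TSPAN8-high cells and 1.21% in TSPAN8-low cells, against 1.28% in TSPAN8-high cells and 1.25% in TSPAN8-low cells over the rest. The most methylated were Abcb5 at 97.1% in TSPAN8-high cells and 97.5% in TSPAN8-low cells and Rdh5, a retinol dehydrogenase gene of the eye, at 97.1% in TSPAN8-high cells and 95.3% in TSPAN8-low cells. Next were Morn1 at 94.4% in TSPAN8-high cells and 97.3% in TSPAN8-low cells, Faap20, a gene of the Fanconi anaemia DNA repair pathway, at 94.9% in TSPAN8-high cells and 92.3% in TSPAN8-low cells, and Ptk6, which encodes an epithelial tyrosine kinase, at 92.7% in TSPAN8-high cells and 94.0% in TSPAN8-low cells.

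The most distal measured promoter of each chromosome, placeholder symbols left out, lay from 25.3 to 1818 kb from the last listed cytosine. Of these 19, 17 were below 20% in both libraries, with a median of 1.65% in TSPAN8-high cells and 1.72% in TSPAN8-low cells. The exceptions were Mrgprd, whose values are given with its sequence, and the zinc finger gene Zfp950 on chromosome 19, at 15.1% in TSPAN8-high cells and 20.7% in TSPAN8-low cells. Among the low ones were Wls, needed for Wnt secretion, 96.0 kb from the end of chromosome 3, at 1.87% in TSPAN8-high cells and 5.26% in TSPAN8-low cells. Klhl17 on chromosome 4 had 0 methylated of 110 reads in TSPAN8-high cells and 0 of 98 in TSPAN8-low cells, which allows up to 2.73% and 3.06% from counting error alone. A read spanning several CpGs was counted once for each, so these limits and those below are lower than they should be.

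Members of gene lists of the germline, development and telomeres were read next, 14 lists in all. Of the FGF ligand genes, 5 lay in distal windows. Fgf3 was at 0.231% in TSPAN8-high cells and 0.603% in TSPAN8-low cells, Fgf15 at 2.05% in TSPAN8-high cells and 1.61% in TSPAN8-low cells and Fgf10 at 2.30% in TSPAN8-high cells and 0.264% in TSPAN8-low cells, while Fgf14 had too few measured CpGs and Fgf4 is given with its sequence. Genes of spermatogonial maintenance and differentiation were low too. Ccnd1 was at 0.351% in TSPAN8-high cells and 0.310% in TSPAN8-low cells, and Itgb1, which encodes the beta-1 integrin of the stem cell surface, at 1.65% in TSPAN8-high cells and 0.958% in TSPAN8-low cells. The retinoic acid receptor gene Rarg had 0 methylated of 198 reads in TSPAN8-high, which allows up to 1.52%, and was at 0.483% in TSPAN8-low. The imprinted genes Cdkn1c and Phlda2 were at 1.95% and 1.09% in TSPAN8-high cells and at 0.694% in TSPAN8-low cells for each. The imprinted gene Slc22a18 had too few measured CpGs. The levels of Tex19.1, the highest list member, and of Rtel1, of the telomere list, are given with their sequences. None of the measured members was called different between the libraries, beside 0.342% of all promoter windows. Fgf14 was measured and called lower under other settings, at 13.3% in TSPAN8-high cells and 29.0% in TSPAN8-low cells with at least 5 reads (Fisher's exact test, adjusted p = 0.0207) and at 11.1% in TSPAN8-high cells and 25.5% in TSPAN8-low cells with windows of 2 kb (adjusted p = 0.0158).

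The last comparison asked whether the libraries differed at the distal ends. Their means lay within a fraction of a percentage point. Over 19 chromosomes TSPAN8-high minus TSPAN8-low was -0.174 percentage points in the distal windows (SD 0.339, 95% interval -0.338 to -0.0109, negative on 13 of 19 chromosomes, exact sign test p = 0.167). Weighted by reads it was -0.794 (17 of 19 negative, exact sign test p = 0.000729), and with at least 5 reads -0.0465. In the matched rest the unweighted value was -0.114 (SD 0.0495, 95% interval -0.138 to -0.0901, negative on 19 of 19, exact sign test p = 3.8e-06). The difference between them, distal minus rest, was -0.0604 percentage points (95% interval -0.227 to 0.106, negative on 9 of 19, exact sign test p = 1). A separate shift of the distal ends was not detectable. The mean turned to 0.0783 with at least 5 reads and to 0.0274 with a window of 5 Mb, and the interval was widest with at least 20 reads, from -0.452 to 0.364. Weighted by reads the distal part minus the rest was -0.0853 (95% interval -0.358 to 0.187). Chromosome 13 had the most negative distal value, -0.993, and chromosome 15 the most positive, 0.421.

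**Figure D5:**
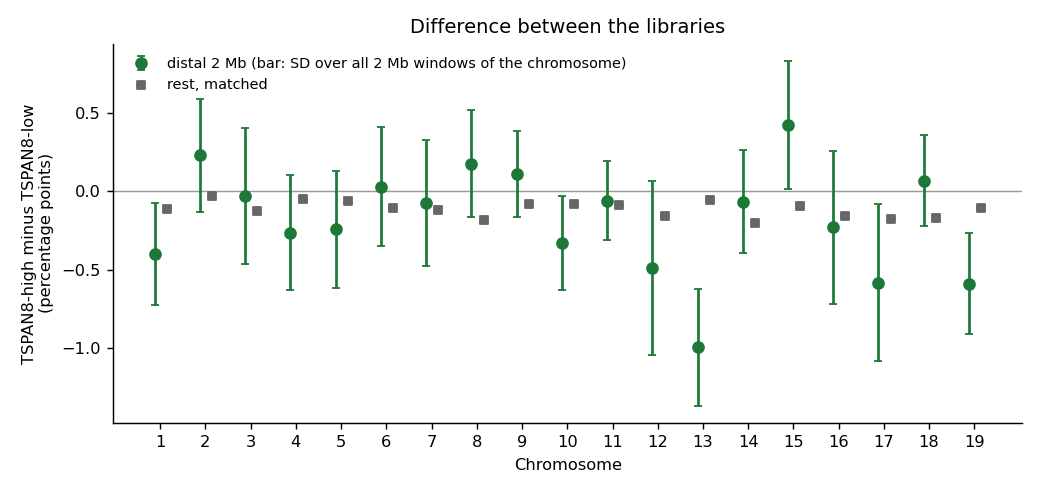
TSPAN8-high minus TSPAN8-low in percentage points for each chromosome, distal 2 Mb (circles, with the SD over all 2-Mb windows of the chromosome as bars) and matched rest (squares). The rest lies just below 0 on 19 of 19 chromosomes, while distal values run from -0.993 on chromosome 13 to 0.421 on chromosome 15.

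At the level of short tiles, differences were few. Reads were pooled over 1-kb tiles that held 3 or more CpGs, and a tile was called at a Benjamini-Hochberg adjusted p below 0.05 in Fisher's exact test over all tiles when the levels were also 10 or more percentage points apart. Of 2591 distal tiles 15 were called, and TSPAN8-high was higher in 7 and lower in 8. This is 0.579% of them, beside 0.648% of all 187549 tiles of the series, of which 0.343% were higher and 0.305% lower. The share was near the background, so the count says nothing particular about distal ends. Where the mean level lay between 10% and 90%, 3.03% of 429 distal tiles were called and 2.85% in the rest. The called tiles fell on 9 chromosomes. Reads spanning several CpGs entered once per CpG, so these p values are smaller than they should be.

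The tile with the largest rise lay inside Fry on chromosome 5, which encodes a microtubule-binding protein of the mitotic spindle (150183001 to 150184000), with 94.6% of 92 reads in TSPAN8-high cells and 66.7% of 81 in TSPAN8-low cells. The difference was 27.9 percentage points (95% interval 16.5 to 39.1, Fisher's exact test, adjusted p = 0.00200). Inside Ano1, a calcium-activated chloride channel gene on chromosome 7 (144698001 to 144699000), 54.7% in TSPAN8-high stood against 31.7% in TSPAN8-low. Inside B3galt5, a glycosyltransferase gene on chromosome 16 (96297001 to 96298000), 85.2% in TSPAN8-high stood against 64.9% in TSPAN8-low, and another tile of the same gene (96272001 to 96273000) was lower, at 80.4% in TSPAN8-high against 97.6% in TSPAN8-low. A tile 451 bp from Rxfp2, the receptor gene for the testis hormone INSL3, on chromosome 5 (150083001 to 150084000) had 20% in TSPAN8-high cells and 1.67% in TSPAN8-low cells. A tile 1721 bp from Slc17a9, a vesicular nucleotide transporter gene on chromosome 2, had 33.9% in TSPAN8-high cells and 16.5% in TSPAN8-low cells.

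The tile with the largest fall lay 127245 bp from Adcyap1 on chromosome 17 (93070001 to 93071000), with 27.6% of 76 reads in TSPAN8-high cells and 67.5% of 77 in TSPAN8-low cells. The difference was -39.9 percentage points (95% interval -52.8 to -24.3, Fisher's exact test, adjusted p = 0.00102). Next came a tile 212414 bp from Depdc1a on chromosome 3 (159282001 to 159283000), with 33.3% in TSPAN8-high cells and 68.4% in TSPAN8-low cells. A tile 48332 bp from the cohesin regulator gene Pds5b on chromosome 5 had 72.2% in TSPAN8-high cells and 100% in TSPAN8-low cells, from 36 and 48 reads. A tile 65308 bp from Ttc34 on chromosome 4 had 78.3% in TSPAN8-high cells and 97.1% in TSPAN8-low cells, and a tile 2690 bp from Emx2 on chromosome 19 had 67.2% in TSPAN8-high cells and 85.2% in TSPAN8-low cells. Each tile rests on 1 library per fraction. With at least 5 reads per cytosine 9 of the 15 called tiles kept their call, and with 1 cytosine kept per 100 bp 0 of the 7 that could be measured did, all in the same direction as before.

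No distal promoter was called between the libraries. Over all promoter windows of the series 0.146% were called higher and 0.195% lower. By Fisher's exact test 47 had an unadjusted p below 0.05, which is 16.7% of them beside 16.0% of all promoter windows. An adjusted p below 0.05 at any difference was reached by 10, or 3.55% beside 3.15% of all, so both shares were near the background. Among the 10 was Tmem267, with 41.4% of 2986 reads in TSPAN8-high cells and 45.5% of 3108 in TSPAN8-low cells (adjusted p = 0.0437, Fisher's exact test). Lrrc40 and Srsf11, a splicing factor gene, share a window with 4.18% in TSPAN8-high cells and 0 of 429 reads in TSPAN8-low cells, which allows up to 0.699%. Hoxc8 had 0 of 430 reads in TSPAN8-high, which allows up to 0.698%, and 2.95% in TSPAN8-low, and Hoxc9 had 0 of 370, which allows up to 0.811%, and 2.92%. The other 6 measured Hoxc promoters were not among the 10, and all 8 lay at or below 5.25% in TSPAN8-high cells and 4.57% in TSPAN8-low cells. The widest difference of any distal promoter was that of the window shared by Zbtb46, a factor of dendritic cells, and Abhd16b, with 51.8% in TSPAN8-high cells and 42.1% in TSPAN8-low cells (9.71 percentage points, 95% interval 3.48 to 15.8, Fisher's exact test, adjusted p = 0.0670). These genes were named after their values had been seen.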

How the data were processed

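The series has 10 samples, of which the 2 RRBS libraries were used. The authors deposited 1 table with a line per CpG cytosine and strand, holding the methylation level of each library as a fraction and the coverage as read counts, at least 5 in each. The deposited difference column and the deposited p-value column were read but not used. The submitters' processing notes name Bowtie, SICER, mm9 and mm10 without a role for each. Positions fitted mm10: 100% of 11512 listed plus-strand cytosines inside RefSeq GRCm38.p6 promoter sequences fell on the C of a CG.

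Levels were averaged over cytosines covered by 10 or more reads in each library. For each number of listed CpGs in 200 bp, the mean level of the rest of the chromosome was weighted by the number of distal cytosines. Differences were summarised over 19 chromosomes by the mean, a 95% interval from a t quantile and a two-sided exact sign test. Methylated reads were level times coverage, rounded, and tiles and promoters were tested between libraries with Fisher's exact test (two-sided), with Benjamini-Hochberg adjustment over all tiles or promoters of the series. The reads carry no molecular identifiers, so Newcombe intervals and the limit for a share of 0 (3 reads of the total) cover counting error only. Read totals of tiles and promoters count a read once per CpG it spans, so these intervals and limits are too narrow. A promoter window was centred on the RefSeq start where the promoter table gives the strand (224 of 282 distal genes), and otherwise on the gene end with more listed CpGs (58). The gene table gave no exons. Python 3.11.15, numpy 2.4.6, pandas 2.3.3, scipy 1.17.1 and matplotlib 3.10.9 were used, and the tests were tried on simulated data.

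Named genes were the most distal measured gene of each chromosome, the called tiles that rose most (5) and fell most (5), members of 14 gene lists in distal windows, and the 5 distal promoters with the highest level. Blocks and other genes were named after their values were seen. Members and lists were chosen with earlier results of these data known. Alternatives covered read minimum, window size, read weights, thinning, matching, minimum difference, promoter width and each chromosome left out.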

Additional observations from a re-analysis of the deposited data

How the results depend on the processing

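The distal level was lower than the rest under all 12 other settings, from -3.86 to -0.329 percentage points in TSPAN8-high cells and from -3.80 to -0.356 in TSPAN8-low cells, and from -2.41 to -1.49 and from -2.33 to -1.40 with each chromosome left out. The most negative values, -3.86 and -3.80, came without matching for CpG number (95% interval -9.15 to 1.43 in TSPAN8-high and -9.14 to 1.54 in TSPAN8-low). The distal difference passed the exact sign test with a distal window of 1 Mb, at -3.74 in TSPAN8-high cells and -3.74 in TSPAN8-low cells. With a window of 5 Mb 6 of 19 chromosomes were negative. Matched on place relative to genes as well, it was -1.29 in TSPAN8-high cells and -1.22 in TSPAN8-low cells. The last 0.5 Mb passed under 6 other settings and with each chromosome left out (leaving out the Hoxc genes, which lie farther in, could not change it), from -5.81 to -4.96 in TSPAN8-high cells and from -5.76 to -4.84 in TSPAN8-low cells. Cytosines with 3 to 9 listed CpGs no longer passed with at least 20 reads (-5.83 in TSPAN8-high cells and -5.92 in TSPAN8-low cells), weighted by reads in TSPAN8-high (-6.10) or matched on place (-4.01 in TSPAN8-high cells and -3.89 in TSPAN8-low cells). With each chromosome left out they ran from -6.94 to -5.39 in TSPAN8-high cells and from -6.80 to -5.26 in TSPAN8-low cells. TSPAN8-high minus TSPAN8-low passed when weighted by reads, at -0.794 percentage points, and ran from -0.207 to -0.129 with each chromosome left out. Its distal part minus the rest changed sign with at least 5 reads (0.0783) and a window of 5 Mb (0.0274), and ran from -0.0924 to -0.0118 with each chromosome left out. Called distal tiles numbered 6 with a window of 1 Mb, 53 with 5 Mb, 6 at a minimum of 20 percentage points, 2 with at least 20 reads and 0 with 1 cytosine kept per 100 bp. Called distal promoters numbered 10 with no minimum difference, 2 with windows of 2 kb (Cybc1 at 31.2% in TSPAN8-high cells and 14.9% in TSPAN8-low cells, and Fgf14 at 11.1% in TSPAN8-high cells and 25.5% in TSPAN8-low cells) and 1 with at least 5 reads (Fgf14). Apart from promoters with no minimum difference, the share called over all tiles or promoters was not worked out under these settings. The number tested also changes with window size, read minimum and thinning, so these counts show no change particular to the distal ends. The settings for the last 0.5 Mb and for 3 to 9 listed CpGs, and the exclusion of the Hoxc genes, were chosen after seeing the data. Where results changed, the cause was not tested.

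No paired analysis was possible because each fraction has 1 library. Depth limits single cytosines most, at a median of 16 reads. Nothing here measures the spread between sorts, animals or libraries.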
